A study of Mus musculus with 6 samples.

Results

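The 36 genes described here encode the enzymes that make and break down ceramide, the kinases, phosphatases, lyase and exporter that handle sphingosine-1-phosphate (S1P), and the S1P receptors. They were listed by gene symbol for their place in the pathway, with earlier results of these data known, and all 36 were found among the 24982 genes of the deposited tables. PolyA RNA was sequenced from livers of male C57BL/6NJ mice, 3 samples from mice given chow and 3 from mice given a high fat diet plus sugar water, called high fat high sugar or HFHS, each over 54 weeks. The labels name no transgene or mutant allele, and diet is the difference that the labels name between the groups. The labels do not say that each sample came from its own animal, so the spread behind each p-value is that of these samples and may be technical, and they do not say whether tumour tissue was sampled.

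Sphingolipids are built on a sphingoid base that serine palmitoyltransferase makes from serine and palmitoyl-CoA. Ceramide synthases attach a second fatty acid, and a desaturase completes ceramide, which can become sphingomyelin, glucosylceramide or ceramide-1-phosphate, or be cut back to sphingosine. Sphingosine kinases turn sphingosine into S1P, a signal that leaves the cell and acts on G protein-coupled receptors, and that is ended by phosphatases or by the lyase.

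Of the 36 genes, 33 passed the filter on low counts, 6 of them were higher and 3 lower in HFHS (edgeR's quasi-likelihood test, with p adjusted by Benjamini-Hochberg over all 12949 genes tested and a threshold of 0.05). The higher genes were the serine palmitoyltransferase subunit Sptlc2, ceramide kinase Cerk, the ceramidase Acer2, the sphingomyelinase Smpd3, the sphingosine kinase Sphk1 and the receptor S1pr2. The lower genes were the alternative subunit Sptlc3, the sphingomyelin synthase Sgms2 and the receptor S1pr5. The rises were 18.2% and the falls 9.09% of the 33, beside 11.0% and 3.61% of all genes tested. The median log2 fold change was 0.00 over the 33 and -0.02 over all genes tested. The diets did not overlap, library by library, for 16 of the 33, 9 higher and 7 lower, beside 39.5% of all genes tested (21.5% higher and 18.0% lower). Degs2, Sgpp2 and S1pr4 did not pass the filter and are given by their counts.

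Libraries held 16565335 to 20585366 gene counts, and 3 counts, taken as the detection floor, are 0.115 to 0.202 CPM, which is counts per 1000000 library counts. High fat high sugar replicate 2 had the largest scaling factor, 1.26 against 0.897 to 1.02 in the other 5, and the lowest summed level of 10 hepatocyte markers, 55600 CPM against 88800 and 107000 in its group and 112000 to 134000 in chow. Alb weighed most in that sum, at 71100, 24200 and 50300 CPM in HFHS replicates 1, 2 and 3 and 69100 to 89700 in chow, so the sum largely follows 1 gene. Of those 10 markers 1 was lower and 0 higher, and Ass1 had only 68 and 23 counts in chow and HFHS. Summed macrophage markers were at 340 to 487 CPM in chow and 1080 to 2060 in HFHS (10 of 10 higher), and stellate cell markers at 78.3 to 99.6 and 234 to 566 (9 of 10 higher). Endothelial markers were at 232 to 289 and 333 to 424 CPM (6 of 10 higher), and bile duct markers at 24.4 to 44.6 and 173 to 293 (6 of 7 tested higher). Most of the bile duct sum was Spp1, at 18.3 to 39.5 CPM in chow and 161 to 264 in HFHS. Lymphocyte and NK cell markers were at 3.77 to 7.62 and 8.16 to 15.5 CPM (1 of 8 tested higher), and neutrophil markers at 2.36 to 7.95 and 10.7 to 39.9 (0 of 3 tested past the threshold, with all 3 at an unadjusted p under 0.05). No list had a marker at 0 in every library. In whole liver, more cells of a type and more RNA per cell cannot be told apart, and the part of these cell types in the results that follow was not tested.

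**Figure D1:**
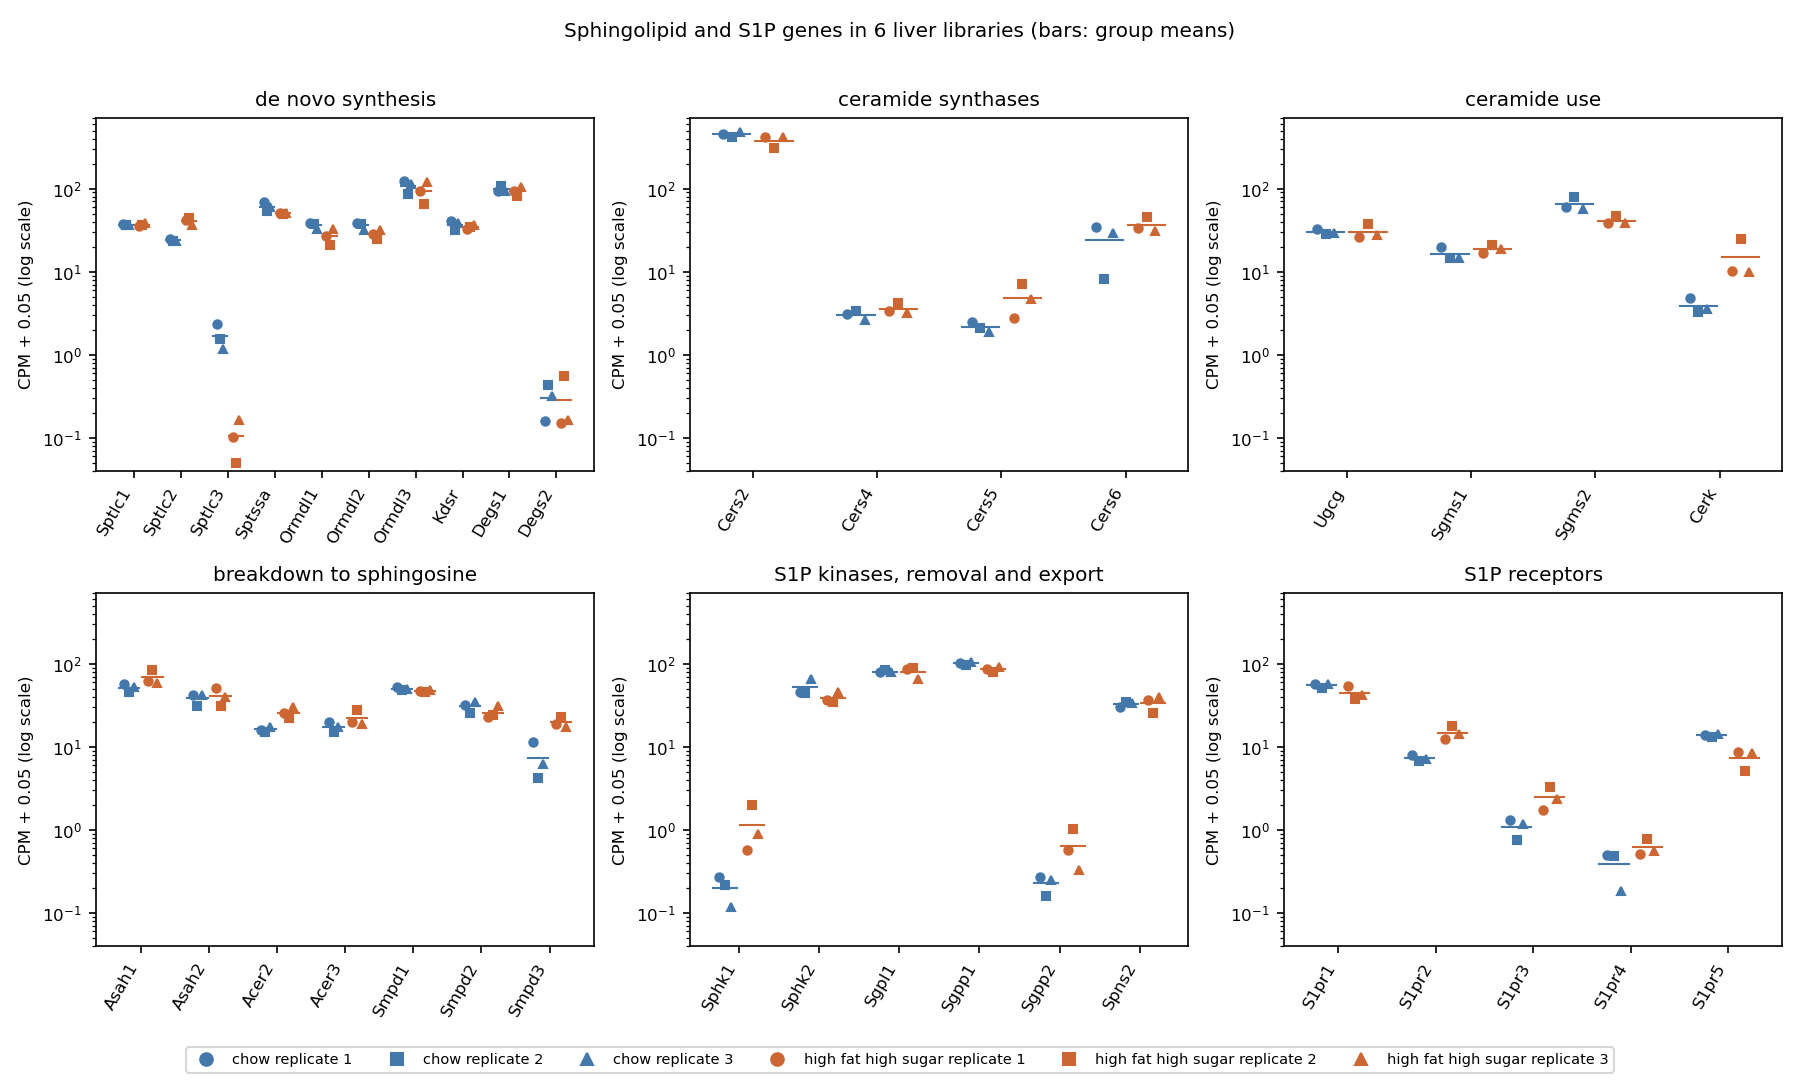
Level of each of the 36 genes in every library, as CPM + 0.05 on a log scale, by role. Blue marks are the 3 chow and orange marks the 3 HFHS libraries, shapes give the replicate number and bars the group means. Sptlc3 and Sphk1 show the widest gaps between diets, while Sptlc1, Smpd1 and Sgpl1 sit at one level.

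Serine palmitoyltransferase, the first and rate-limiting enzyme of the pathway, is a complex of Sptlc1 with either Sptlc2 or Sptlc3 as the catalytic partner, and these genes did not move together. Sptlc2 (chromosome 12, 87305058 to 87388355, mouse build GRCm38.p6) was at 24.9, 23.2 and 23.7 CPM in chow replicates 1, 2 and 3, and at 42.4, 44.1 and 36.2 CPM in HFHS replicates 1, 2 and 3. Every HFHS library lay above every chow library. Sptlc2 rose 1.71-fold, with a log2 fold change of 0.77 ± 0.11 (SE, adjusted p = 0.0105 by edgeR, Benjamini-Hochberg). Sptlc3 (chromosome 2, 139493913 to 139637061) was at 2.28, 1.48 and 1.14 CPM in chow, and at 0.0517, 0 and 0.112 CPM in HFHS. It had 85 counts over the chow libraries and 3 over the HFHS libraries, each of which was under the floor. Scaled to the effective library sizes, the ratio of chow to HFHS counts was 35.1, with a 95% counting interval of 11.6 to 174 that covers counting error only. Sptlc3 passed the filter on low counts through its chow libraries alone. It fell in the fit across all genes (adjusted p = 0.0102 by edgeR, Benjamini-Hochberg), and was also called lower without that filter. Its fitted log2 fold change of -4.91 ± 0.69 (SE) depends on the prior count and ranged from -5.85 without HFHS replicate 3 to -4.23 without HFHS replicate 2. The common subunit Sptlc1 had a level of 36.8 ± 0.514 CPM in chow and of 37.0 ± 1.47 in HFHS (SD, n = 3), with a 95% interval of its log2 fold change from -0.21 to 0.22.

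The stretches before the start sites of Sptlc2 and Sptlc3 are shown because these alternative partners moved in opposite directions. Each is 250 bases, 5′ to 3′ on the gene's own strand, from RefSeq on GRCm38.p6, at chr12:87388356-87388605 (minus strand) and chr2:139493663-139493912 (plus strand). Capitals mark matches to CCAAT or GGGCGG on either strand.
Sptlc2: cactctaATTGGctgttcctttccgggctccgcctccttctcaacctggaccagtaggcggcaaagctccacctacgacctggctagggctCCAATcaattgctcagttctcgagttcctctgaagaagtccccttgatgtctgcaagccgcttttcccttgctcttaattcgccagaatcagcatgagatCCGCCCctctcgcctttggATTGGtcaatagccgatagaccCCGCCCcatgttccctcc
Sptlc3: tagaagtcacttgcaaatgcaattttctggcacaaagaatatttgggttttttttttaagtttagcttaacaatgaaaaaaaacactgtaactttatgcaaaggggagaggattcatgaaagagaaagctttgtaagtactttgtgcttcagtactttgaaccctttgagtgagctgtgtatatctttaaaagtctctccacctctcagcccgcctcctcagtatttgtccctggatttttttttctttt
The Sptlc2 stretch held 3 matches to CCAAT and 2 to GGGCGG, which did not overlap each other, and the Sptlc3 stretch held neither. Of 32851 promoter windows of the same length, CCAAT was in 33.8% and GGGCGG in 32.7%. Matches to 4 further motifs were in neither stretch on either strand. These were the TATA box TATAAA, found in 12.4% of windows, the E-box CACGTG in 6.02%, the AP-1 site TGANTCA in 6.75% and the cyclic AMP response element TGACGTCA in 1.55%. GC content was 55.2% with 11 CpG in Sptlc2 and 35.6% with 1 CpG in Sptlc3, beside medians of 52.4% and 6 over all windows. A match is a description of the letters and not a measured site.

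Per kilobase of exon, which is needed to set genes side by side, Sptlc2 made up 21.3%, 21.0% and 21.4% of the summed level of the 3 subunits in chow and 34.3%, 34.3% and 29.1% in HFHS. Sptlc3 made up 5.58%, 3.84% and 2.95% in chow and 0.119%, 0% and 0.257% in HFHS. The diets did not overlap for either share. The ratio of Sptlc1 to Sptlc2 counts within a library, which needs no scaling between libraries, was 0.59, 0.65 and 0.63 on the log2 scale in chow and -0.26, -0.26 and 0.09 in HFHS. In all, 14 such ratios between members were compared, and the diets did not overlap for 9 of them. Several of the 14 share a gene, so they are not independent, and no background over ratios of other genes was computed. With 3 libraries against 3, the exact two-sided permutation test cannot go below p = 0.1, which each of the 9 reached (0.156 with Benjamini-Hochberg adjustment over the 14), so none could pass 0.05.

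**Figure D2:**
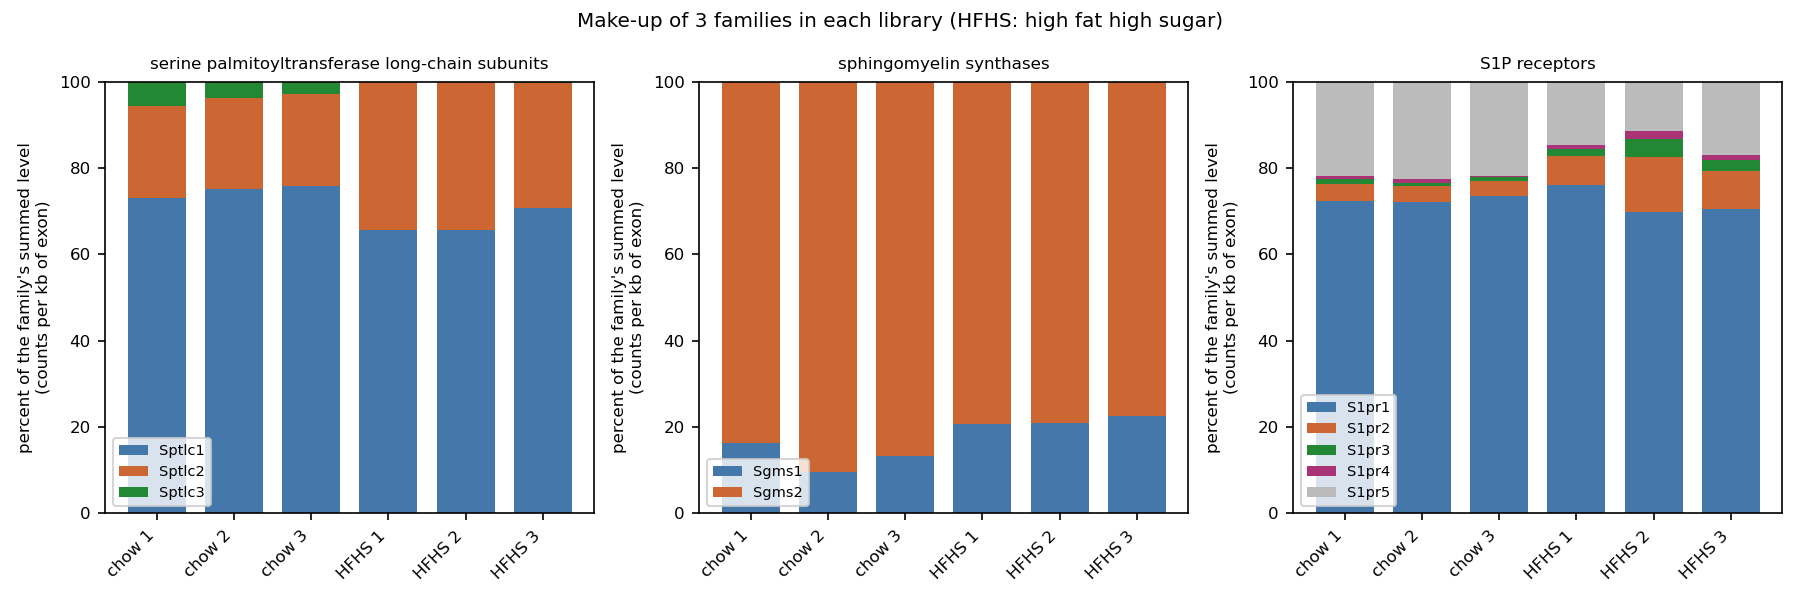
Make-up of the serine palmitoyltransferase subunits, the sphingomyelin synthases and the S1P receptors in each library, as percent of the family's summed level per kilobase of exon. Stacked bars start at 0 and reach 100; the Sptlc2, Sgms1 and S1pr2 segments are wider and the Sptlc3, Sgms2 and S1pr5 segments narrower in all 3 HFHS libraries.

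Among the other genes of de novo synthesis none passed the threshold. Sptssa, the small subunit that activates serine palmitoyltransferase, was at 53.8 to 68.1 CPM in chow and 49.7 to 50.8 CPM in HFHS (adjusted p = 0.147 by edgeR, Benjamini-Hochberg). The ORMDL proteins hold the enzyme back when ceramide is plentiful. Ormdl1 was at 38.2, 37.0 and 32.8 CPM in chow and 26.9, 21.2 and 32.3 CPM in HFHS, a log2 fold change of -0.43 ± 0.16 (SE, adjusted p = 0.115 by edgeR, Benjamini-Hochberg). It passed the threshold only without HFHS replicate 3 (-0.59). Ormdl2 had a similar log2 fold change of -0.35 ± 0.14, but 66.7% of its exon bases overlap Dnajc14 on the opposite strand, and the strand setting of the counting is not given in the sources used here. Ormdl3, the most abundant of them per kilobase of exon with 62.4% ± 5.63 of the family's level in chow and 64.6% ± 3.41 in HFHS (SD, n = 3), ranged from 65.5 to 123 CPM with overlapping diets. The reductase Kdsr and the desaturase Degs1 had log2 fold changes of -0.09 each, with 95% intervals from -0.37 to 0.19 and from -0.39 to 0.21. Degs2, a desaturase that also adds a hydroxyl group, had 13 counts over the chow and 17 over the HFHS libraries.

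None of the 4 ceramide synthases passed the threshold. Cers2, which makes very-long-chain ceramides and is the main hepatic synthase, was the most abundant of all 36 genes per kilobase of exon in both diets, and held 97.3% ± 1.14 of the family's level in chow and 94.5% ± 2.35 in HFHS (SD, n = 3). Its libraries stood at 453, 422 and 476 CPM in chow and 413, 308 and 417 CPM in HFHS, which overlapped in no library, with a log2 fold change of -0.25 ± 0.17 (SE) that did not pass the threshold and became 0.00 when libraries were scaled by size only. Cers5 and Cers6 prefer palmitoyl-CoA. Cers5 was at 2.45, 2.03 and 1.82 CPM in chow and 2.69, 7.12 and 4.69 CPM in HFHS. Its diets did not overlap and its log2 fold change was 1.20 ± 0.37 (SE, adjusted p = 0.0651 by edgeR, Benjamini-Hochberg), and it passed without HFHS replicate 1 (1.49), with DESeq2 (1.21) and with scaling by library size only (1.52). Cers6 was uneven within chow, at 34.3, 8.08 and 28.9 CPM in replicates 1, 2 and 3, against 33.2, 46.1 and 31.1 CPM in HFHS. Chow replicate 2 was the low library, while chow replicate 1 lay within the HFHS range, and the log2 fold change of 0.64 ± 0.49 (SE) had a 95% interval from -0.54 to 1.81. Cers4 was at 2.56 to 3.30 CPM in chow and 3.13 to 4.16 CPM in HFHS.

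Among enzymes that use ceramide, Cerk, which phosphorylates it to ceramide-1-phosphate (chromosome 15, 86139101 to 86186259), had the largest rise. Cerk was at 4.73, 3.19 and 3.50 CPM in chow and at 10.2, 24.9 and 9.94 CPM in HFHS. All 3 HFHS libraries were above chow, with replicate 2 far above the other two. The rise was 3.95-fold, 1.98 ± 0.40 on the log2 scale (SE, adjusted p = 0.0218 by edgeR, Benjamini-Hochberg), and 1.41 without HFHS replicate 2. It missed the threshold without chow replicate 2 (1.86) or chow replicate 3 (1.92). The summed macrophage, stellate cell, bile duct, neutrophil, and lymphocyte and NK cell markers were likewise highest in HFHS replicate 2, and their part in the result was not tested.

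Sgms2, a sphingomyelin synthase of the plasma membrane (chromosome 3, 131318985 to 131491443), was at 59.8, 80.1 and 56.4 CPM in chow and at 38.1, 47.3 and 38.2 CPM in HFHS. No HFHS library reached the lowest chow library. Sgms2 fell 1.59-fold, with a log2 fold change of -0.67 ± 0.16 (SE, adjusted p = 0.0358 by edgeR, Benjamini-Hochberg). This call was lost without any one of the libraries other than HFHS replicate 2, with values from -0.77 to -0.51, and with scaling by library size only (-0.39). Its Golgi counterpart Sgms1 was at 14.6 to 19.9 CPM in chow and 16.7 to 21.2 CPM in HFHS. The log2 ratio of Sgms2 to Sgms1 counts was 1.59, 2.46 and 1.95 in chow and 1.19, 1.16 and 1.01 in HFHS, with no overlap. Per kilobase of exon Sgms1 held 13.1% ± 3.35 of the pair's level in chow and 21.4% ± 1.12 in HFHS (SD, n = 3), and 26.7% and 39.8% where the longest transcript set the length. Ugcg, which makes glucosylceramide, was at 30.0 ± 2.14 and 30.4 ± 6.5 CPM (SD, n = 3), with a 95% interval of its log2 fold change from -0.36 to 0.39.

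Of the 7 genes that release ceramide or sphingosine, Acer2 and Smpd3 rose and 0 fell, beside 11.0% and 3.61% of all genes tested. Acer2, the Golgi ceramidase (chromosome 4, 86874348 to 86932524), was at 16, 15.1 and 17.4 CPM in chow and at 25.4, 22.0 and 29.8 CPM in HFHS. The groups were clear of each other, and HFHS replicate 2 was here the lowest of its group. Acer2 rose 1.59-fold, 0.67 ± 0.14 on the log2 scale (SE, adjusted p = 0.0220 by edgeR, Benjamini-Hochberg). Without chow replicates 1, 2 and 3 or HFHS replicate 1 in turn it had values of 0.66, 0.62, 0.72 and 0.68 and missed the threshold.

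Smpd3, the neutral sphingomyelinase that releases ceramide at the plasma membrane and Golgi (chromosome 8, 106252548 to 106337965), was at 11.5, 4.12 and 6.13 CPM in chow and at 18.8, 22.8 and 17.2 CPM in HFHS. Chow replicate 1 was the nearest of its group to the other diet, and the groups did not overlap. The log2 fold change was 1.43 ± 0.35 (SE, adjusted p = 0.0364 by edgeR, Benjamini-Hochberg), a 2.70-fold rise. The call was lost without any one library other than chow replicate 1, with values of 1.14 and 1.32 without chow replicates 2 and 3 and of 1.46, 1.32 and 1.51 without HFHS replicates 1, 2 and 3.

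The other 5 of these genes did not pass the threshold. Asah1, the lysosomal acid ceramidase, was at 56.5, 45.3 and 52.5 CPM in chow and 61.4, 84.6 and 59.3 CPM in HFHS, with no overlap but a log2 fold change of 0.41 ± 0.16 that missed the threshold (adjusted p = 0.130 by edgeR, Benjamini-Hochberg). Acid sphingomyelinase, Smpd1, was at 50.2 ± 1.82 CPM in chow and 47.2 ± 1.44 in HFHS (SD, n = 3), with a 95% interval of its log2 fold change from -0.30 to 0.13. Asah2, the neutral ceramidase, and the alkaline ceramidase Acer3 had log2 fold changes of 0.09 ± 0.20 and 0.34 ± 0.18 (SE). Smpd2 had -0.26 ± 0.16, and 20.3% of its exon bases overlap Mical1 on the opposite strand.

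**Figure D3:**
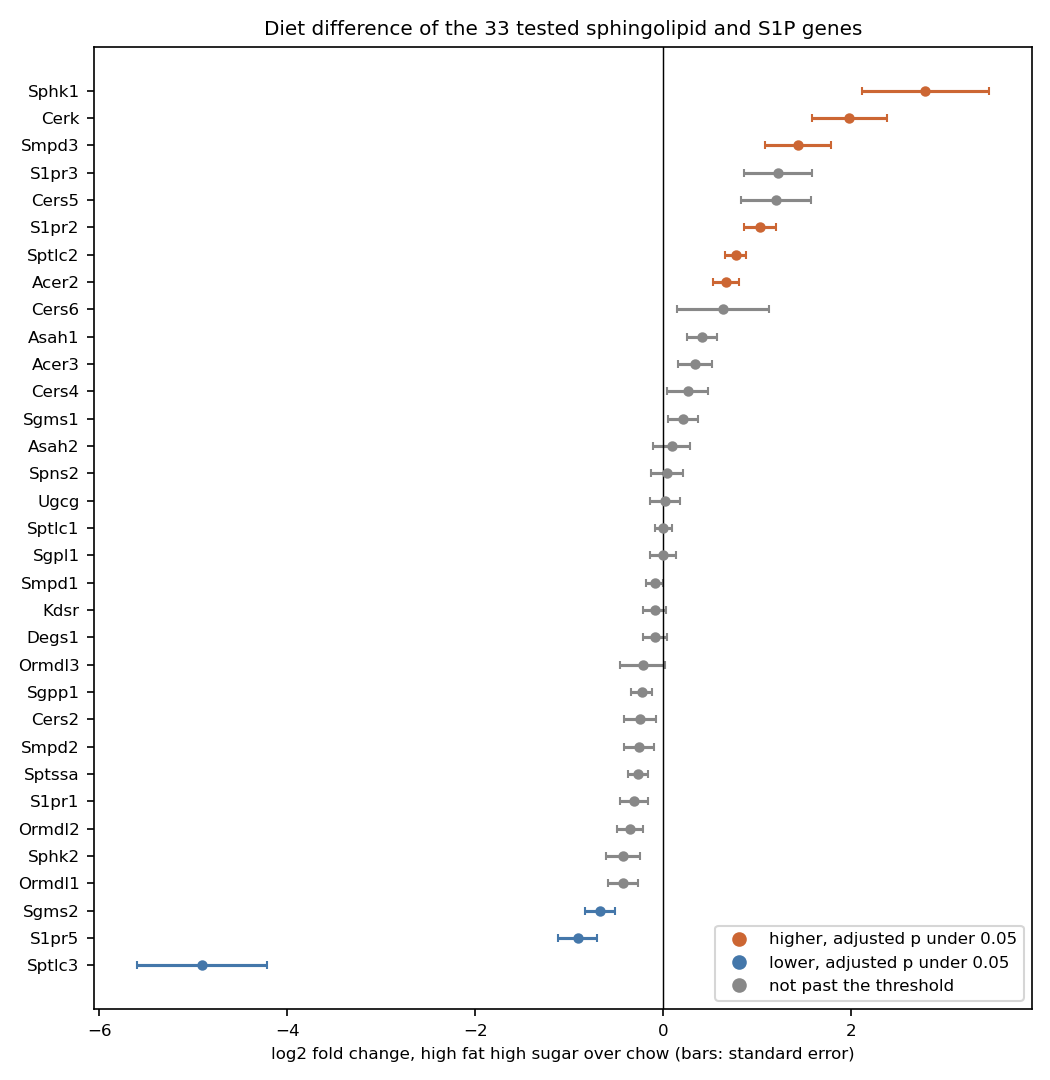
Log2 fold change of the 33 tested genes, HFHS over chow, with standard errors as bars. Orange marks the 6 genes called higher, blue the 3 called lower and grey the other 24; Sptlc3 at -4.91 and Sphk1 at 2.79 are the ends of the range.

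The sphingosine kinases stood at very different levels and only the rarer one passed the threshold. Sphk1 (chromosome 11, 116530836 to 116536675), the growth factor- and cytokine-responsive kinase, had 4, 3 and 1 counts in chow and 10, 50 and 15 in HFHS. This came to 0.222, 0.165 and 0.0673 CPM in chow, close to or under the floor, and to 0.517, 1.92 and 0.838 CPM in HFHS. All HFHS libraries were above chow, most of all replicate 2. Scaled to the effective library sizes, the ratio of HFHS to chow counts was 7.56, with a 95% counting interval of 3.65 to 18.2. That interval covers counting error only and leaves out the spread between libraries. Sphk1 passed the filter on low counts through its HFHS libraries alone, and was also called higher without that filter. The fitted log2 fold change was 2.79 ± 0.68 (SE, adjusted p = 0.0346 by edgeR, Benjamini-Hochberg). Without HFHS replicate 2 it was 2.07 and missed the threshold, as it did at 3.14, 2.83 and 2.48 without chow replicates 1, 2 and 3. The same 5 summed marker lists were highest in HFHS replicate 2 here too, and their part in this result was not tested.

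Sphk2, the mainly nuclear and mitochondrial kinase, held 99.7% ± 0.170 of the summed level of both kinases in chow and 97.5% ± 1.90 in HFHS (SD, n = 3), per kilobase of exon. Its libraries stood at 45.8, 44.7 and 65.1 CPM in chow and 36.4, 34.1 and 45.3 CPM in HFHS, which overlapped (log2 fold change -0.43 ± 0.18, SE, adjusted p = 0.152 by edgeR, Benjamini-Hochberg). Of its exon bases 21.9% overlap Dbp and Rpl18 on the opposite strand, so its counts are uncertain. Sgpl1, the lyase that ends S1P for good, was at 80.3 ± 3.02 and 80.3 ± 12.4 CPM (SD, n = 3), with a log2 fold change of 0.00 and a 95% interval from -0.31 to 0.31. The log2 ratio of Sphk1 to Sgpl1 counts was -8.30, -8.77 and -9.60 in chow and -7.32, -5.51 and -6.25 in HFHS, with no overlap. It rests on the 4, 3 and 1 counts of Sphk1 in chow and leaves out Sphk2, the far more abundant kinase, whose log2 fold change of -0.43 did not pass the threshold.

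Of the S1P phosphatases, Sgpp1 was at 95.5 to 104 CPM in chow and 80.2 to 92.2 CPM in HFHS, without overlap but not past the threshold (log2 fold change -0.23 ± 0.11, SE, adjusted p = 0.191 by edgeR, Benjamini-Hochberg). Its rare relative Sgpp2 had 4, 2 and 3 counts in chow and 10, 25 and 5 in HFHS, too few to be tested with all libraries. The ratio of HFHS to chow counts, scaled to the effective library sizes, was 3.59 with a 95% counting interval of 1.71 to 8.40. That interval covers counting error only, leaves out the spread between libraries and is not a test of diet. Sgpp2 entered the test and was called higher when HFHS replicate 3, its lowest HFHS library, was left out. It then passed the filter on low counts through its HFHS libraries alone. With all libraries and no filter it was not called. Spns2, which exports S1P from endothelial cells, was at 30.0 to 34.8 CPM in chow and 25.2 to 39.4 CPM in HFHS, with a 95% interval of its log2 fold change from -0.36 to 0.44.

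Each of the 5 S1P receptors had counts in every library, though S1pr4 was under the floor in chow replicate 3 with 2 counts. S1pr2 rose while S1pr5 fell. S1pr2 (chromosome 9, 20965952 to 20976793), which also responds to conjugated bile acids, was at 7.90, 6.76 and 7 CPM in chow and at 12.4, 17.9 and 14.1 CPM in HFHS. The lowest HFHS library lay well above the highest chow library. S1pr2 rose 2.05-fold, a log2 fold change of 1.03 ± 0.17 (SE, adjusted p = 0.0138 by edgeR, Benjamini-Hochberg), and missed the threshold without chow replicate 2 (0.98) or chow replicate 3 (1.00). S1pr5 (chromosome 9, 21242917 to 21248443), known from NK cells and oligodendrocytes, was at 14, 13.1 and 14.1 CPM in chow and at 8.52, 5.04 and 8.44 CPM in HFHS. Chow libraries were close together and all above the other diet. It fell 1.88-fold, with a log2 fold change of -0.91 ± 0.21 (SE, adjusted p = 0.0312 by edgeR, Benjamini-Hochberg), and missed the threshold without chow replicates 1 (-0.90), 2 (-0.95) or 3 (-0.90). The 8 lymphocyte and NK cell markers tested had log2 fold changes from 0.05 to 2.51, 1 of them called higher, and their part in the result was not tested.

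The 250 bases before the start sites of S1pr2 and S1pr5 are shown because these receptors moved in opposite directions and lie 266 kb apart on one strand of chromosome 9. They are at chr9:20976794-20977043 and chr9:21248444-21248693, both on the minus strand and written 5′ to 3′ from RefSeq on GRCm38.p6. Capitals mark TGACGTCA in S1pr2 and GGGCGG on either strand in S1pr5.
S1pr2: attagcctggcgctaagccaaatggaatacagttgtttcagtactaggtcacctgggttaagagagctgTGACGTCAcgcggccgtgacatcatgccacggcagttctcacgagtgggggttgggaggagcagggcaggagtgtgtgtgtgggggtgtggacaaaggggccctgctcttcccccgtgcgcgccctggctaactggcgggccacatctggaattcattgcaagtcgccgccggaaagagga
S1pr5: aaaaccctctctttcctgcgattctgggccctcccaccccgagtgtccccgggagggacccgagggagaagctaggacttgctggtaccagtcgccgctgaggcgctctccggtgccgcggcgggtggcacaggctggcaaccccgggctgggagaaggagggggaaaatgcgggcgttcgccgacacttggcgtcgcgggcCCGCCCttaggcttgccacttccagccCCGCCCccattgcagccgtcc
The S1pr2 stretch held 1 match to TGACGTCA, and the S1pr5 stretch 2 to GGGCGG, beside the shares of all windows given above. No other motif of the 6 searched matched in either. GC content was 59.2% with 14 CpG in S1pr2 and 69.2% with 22 CpG in S1pr5.

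S1pr1, the receptor of endothelial cells and lymphocytes, was the most abundant receptor per kilobase of exon, with 72.7% ± 0.709 of the family's level in chow and 72.1% ± 3.52 in HFHS (SD, n = 3). S1pr5 held 22.1% ± 0.437 and 14.4% ± 2.76, S1pr2 3.65% ± 0.236 and 9.48% ± 3.10, S1pr3 0.937% ± 0.221 and 2.81% ± 1.29, and S1pr4 0.582% ± 0.316 and 1.22% ± 0.476. The order from S1pr1 to S1pr4 was the same in both group means, and shares of the last 4 did not overlap between the diets. Shares of one family are parts of a total, so they do not move independently, and no background over all genes was computed for them. The S1pr4 shares nearly met, at 0.797% in chow replicate 2 and 0.84% in HFHS replicate 1. In CPM, S1pr1 was at 56.3, 50.9 and 57.7 in chow and 53.8, 37.1 and 42.5 in HFHS, with a log2 fold change of -0.31 ± 0.15 (SE, adjusted p = 0.203 by edgeR, Benjamini-Hochberg). In the same libraries 6 of the 10 endothelial markers were called higher, and the log2 fold changes of the 10 ran from 0.08 to 2.36 with a median of 0.57. Their part in the result was not tested. S1pr3, found on stellate and endothelial cells, was at 1.28, 0.715 and 1.14 CPM in chow and 1.70, 3.27 and 2.29 CPM in HFHS. Its diets did not overlap and its log2 fold change of 1.22 ± 0.36 missed the threshold (adjusted p = 0.0625 by edgeR, Benjamini-Hochberg), which it passed with DESeq2 (1.22) and with scaling by library size only (1.52). S1pr4, a leukocyte receptor, had 8, 8 and 2 counts in chow and 9, 19 and 9 in HFHS and was not tested. The log2 ratio of S1pr2 to S1pr1 counts was -2.83, -2.91 and -3.04 in chow and -2.11, -1.05 and -1.59 in HFHS, and that of S1pr3 to S1pr1 also did not overlap between the diets.

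**Figure D4:**
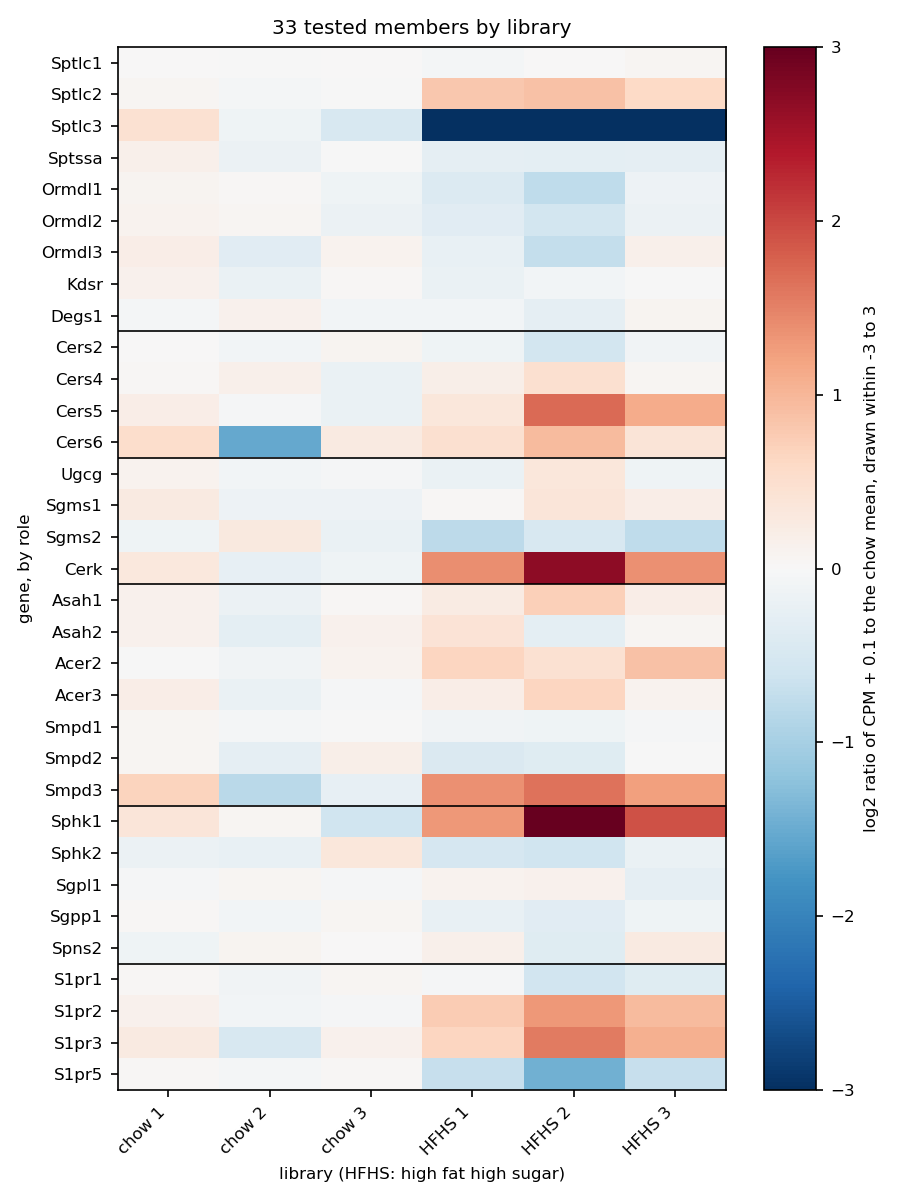
Log2 ratio of each tested gene's CPM + 0.1 to the chow mean, for the 6 libraries, with lines between the roles and values drawn within -3 to 3. The 3 HFHS columns share the dark Sptlc3 cells and the warm Sptlc2, Cerk, Smpd3, Sphk1 and S1pr2 cells, which are warmest in replicate 2; the pale Sptlc1, Smpd1 and Sgpl1 rows show levels near the chow mean.

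A further 47 genes of sphingolipid handling, also listed with earlier results of these data known, served to place these results. Of 40 tested, 5 were higher and 1 lower (12.5% and 2.5%, beside 11.0% and 3.61% of all genes tested), with a median log2 fold change of 0.18. B4galt6, a lactosylceramide synthase, was at 2.34, 1.21 and 1.55 CPM in chow and 7.39, 19.8 and 5.70 CPM in HFHS, a log2 fold change of 2.69 ± 0.54 (SE, adjusted p = 0.0218 by edgeR, Benjamini-Hochberg) and of 1.95 without HFHS replicate 2. The diets did not overlap, and its counterpart B4galt5 was at 39.4 ± 9.29 and 39.8 ± 13.7 CPM (SD, n = 3). Gltp, which carries glycolipids between membranes, rose by 1.82 ± 0.36, the lysosomal galactosylceramidase Galc by 0.94 ± 0.16, the hexosaminidase subunit Hexa by 0.84 ± 0.20 and the galactosylceramide synthase Ugt8a by 1.88 ± 0.50 on the log2 scale (SE). Ugt8a had only 8 counts in chow and 37 in HFHS. It passed the filter on low counts through its HFHS libraries alone, and was not called without that filter. Gba2, the non-lysosomal glucosylceramidase, fell from 14.8, 18.7 and 17.6 CPM in chow to 8.27, 10.8 and 10.2 CPM, with a log2 fold change of -0.80 ± 0.15 (SE, adjusted p = 0.0183 by edgeR, Benjamini-Hochberg). Without chow replicate 3 all 6 of these calls were lost, with log2 fold changes of 2.62 for B4galt6, 1.82 for Gltp, 0.89 for Galc, 0.78 for Hexa, 2.05 for Ugt8a and -0.79 for Gba2. Without chow replicate 2 the calls of B4galt6 (2.48), Gltp (1.82), Hexa (0.74), Ugt8a (1.66) and Gba2 (-0.74) were lost, and without chow replicate 1 those of Gltp (1.80) and Ugt8a (1.91). Ugt8a also missed the threshold without HFHS replicates 1 (1.58) and 3 (1.91), and Hexa without replicate 3 (0.85).

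Genes outside the calls included carriers and neighbours of the S1P route. Apom, the plasma S1P carrier made by hepatocytes, was at 118, 140 and 106 CPM in chow and 110, 57.2 and 73.4 CPM in HFHS, which overlapped (log2 fold change -0.60 ± 0.24, SE). It passed the threshold without HFHS replicate 1 (-0.90). Psap, the precursor of the saposins that help lysosomal enzymes reach their lipids, was at 436 to 499 CPM in chow and at 635, 1250 and 702 CPM in HFHS. It had a log2 fold change of 0.88 ± 0.28 (SE, adjusted p = 0.0705 by edgeR, Benjamini-Hochberg) and passed without HFHS replicate 2 (0.52), with DESeq2 (0.88) and with scaling by library size only (1.19). The ceramide transporter Cert1 (Col4a3bp in the tables), the ganglioside synthase St3gal5 and Aldh3a2, which clears the aldehyde left by the lyase, had log2 fold changes of 0.04 ± 0.11, 0.07 ± 0.35 and 0.26 ± 0.31 (SE). The lipid phosphatases Plpp1 and Plpp3, which act on S1P outside the cell, had 0.38 ± 0.17 and -0.37 ± 0.13 and did not pass, though Plpp3 did with DESeq2 (-0.37) and Plpp1 with scaling by library size only (0.64). Mfsd2b, an S1P exporter of blood cells, had 28 and 26 counts in chow and HFHS and was not tested.

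Calls were lost when single libraries were left out, among the members and in the whole table. Without chow replicate 3, 0 of the 33 members passed by edgeR, with 8 higher and 5 lower at an unadjusted p under 0.05, and 4 genes higher and 2 lower passed in the whole table (0.0301% and 0.0150% of genes tested). Log2 fold changes of the 9 called genes kept their direction without each library in turn. This was all but fixed in advance, as the diets did not overlap for any of the 9. Sptlc2 and Sptlc3 kept their calls in every fit run except the one without chow replicate 3, where they were 0.76 and -5.12. Without chow replicate 2, Sptlc2 and Sptlc3 were the called members, 1 higher and 1 lower beside 2.60% and 0.850% of genes tested. Without HFHS replicate 2, 4 members were higher (Acer2, Cerk, S1pr2 and Sptlc2) and 3 lower (S1pr5, Sgms2 and Sptlc3), beside 9.42% and 3.01% of genes tested. Without chow replicate 1 the counts were 4 and 1 (5.73% and 1.33% of genes tested), without HFHS replicate 1 they were 5 and 2 (9.02% and 2.23%) and without HFHS replicate 3 they were 6 and 3 (12.6% and 5.83%), the last with Sgpp2 and Ormdl1 in place of Smpd3 and Sgms2.

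Other ways of scaling and testing changed which members passed. With RLE scaling the same 6 members were higher and the same 3 lower (10.9% and 3.86% of genes tested), as they were without the filter on low counts (8.17% and 2.83%). With upper-quartile scaling 6 were higher and 2 lower (12.7% and 2.53%), Sgms2 being lost. With library size only 8 were higher and 2 lower (14.9% and 1.54%), which adds Cers5 and S1pr3 to the rises and drops Sgms2. DESeq2 called 8 higher and 3 lower (14% and 7.53%), again with Cers5 and S1pr3. With limma-voom 4 were higher and 3 lower (7.66% and 2.86%), without Cerk and Sphk1. With the replicate number as a block 3 were higher and 3 lower (7.42% and 2.18%), without Cerk, Smpd3 and Sphk1.

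**Figure D5:**
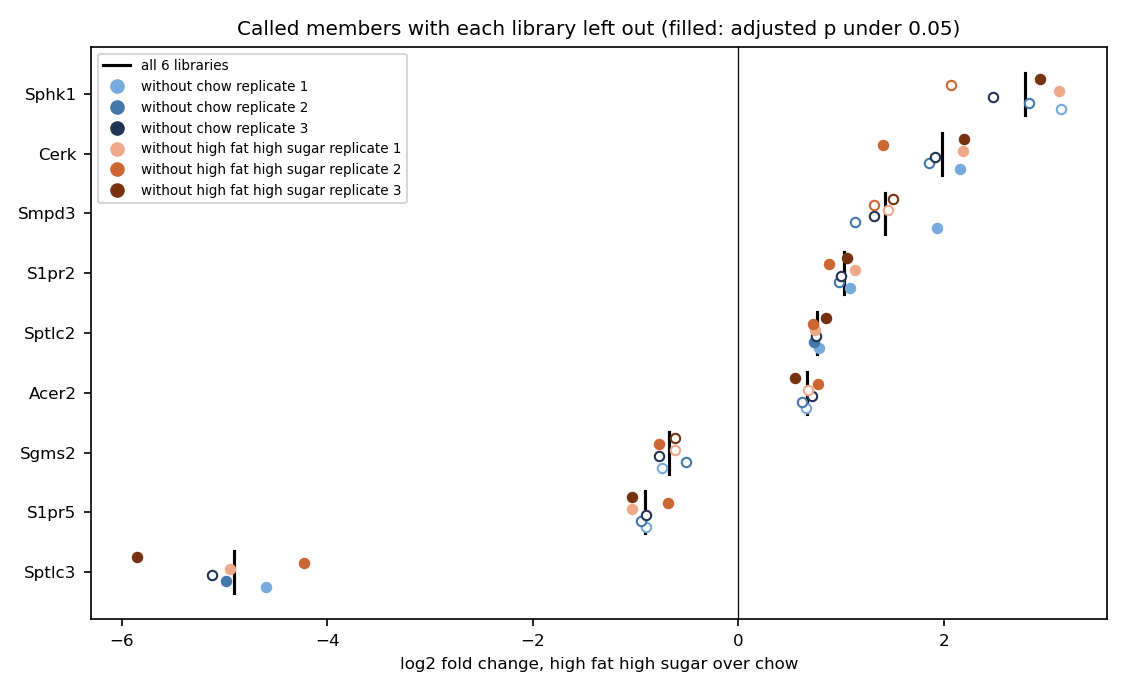
Log2 fold change of the 9 called genes with all 6 libraries (black line) and with each library left out in turn (points coloured by the library left out). Filled points passed an adjusted p of 0.05 and open points did not. Every point for chow replicate 3 is open. No point crosses 0, which is all but fixed for genes whose diets do not overlap.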

How the data were processed

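The authors deposited 1 table of raw counts per library, each giving whole reads by gene symbol. Reads were aligned with STAR to mm10 per the submitters' processing notes. Which counting program, annotation and strand setting were used is not given in the sources used here, though the library kit marks strand per the labels' protocols. Reads outside genes (7.74% to 10.6% of all counts) and reads fitting several genes (0.615% to 0.862%) were left out.

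Genes were filtered with filterByExpr (minimum count 10), scaled by TMM and tested with edgeR's quasi-likelihood test with robust estimation (edgeR 4.0.16, limma 3.58.1, DESeq2 1.42.0, R 4.3.3), with Benjamini-Hochberg adjustment over all 12949 genes tested and a threshold of 0.05. A gene could pass the filter on low counts through the libraries of a single diet, as Sptlc3, Sphk1 and Ugt8a did. The SE is the log2 fold change divided by the square root of F, and intervals use the test's degrees of freedom. CPM uses TMM-scaled library sizes. Levels per kilobase divide counts by the union of a gene's exons in GENCODE M21 (24490 of 24982 genes matched), carry no TMM scaling and compare genes only. Ratios between members add 0.5 to each count. Ratios of a gene's counts between diets are scaled by the TMM-scaled library sizes, with exact binomial intervals. Promoter sequences were found for 33 of the 36 genes. The edgeR fit with and without the replicate block, DESeq2 and limma-voom were run on simulated counts, and the outcome is not given here. The other scalings, the ratios, the counting intervals and the levels per kilobase were not.

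The members and all gene lists were chosen with earlier results of these data known. All members are named, and of the other pathway genes those past the threshold and 12 given names, 1 of which is not reported here. Every pair of libraries within a diet differed by at least 23.8 in chi-square per gene, so none was counted as a copy. File names differ in their stem between the diets, so a difference in handling and diet cannot be told apart. Counting intervals and floors leave out every error but counting, as the reads have no molecular identifiers.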

Additional observations from a re-analysis of the deposited data

How the results depend on the processing

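Scaling by library size only shifted the median log2 fold change over the whole table by 0.27 and gave 1928 higher and 200 lower genes against 1428 and 468, with 10 of the other pathway genes higher and 0 lower (1 at an unadjusted p under 0.05). DESeq2 called 974 genes lower and, of the other pathway genes, 8 higher and 3 lower. limma-voom called 2 of those higher, and without a filter on low counts 2 were lower. The fit with the replicate number as a block called 282 genes lower, 3 members higher (Acer2, S1pr2 and Sptlc2, against 6) and 2 other pathway genes higher. The block was not used for the results, because the labels do not state that same-numbered libraries of the diets are paired. Deviations of same-numbered libraries from the group means had Pearson correlations of -0.25, -0.17 and 0.03. Those of differently numbered libraries ran from -0.08 to 0.23. With 3 libraries per diet these values cannot decide whether any libraries were paired.

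With each library left out, counts ran from 4 to 1664 higher and from 2 to 772 lower over all genes, from 0 to 6 higher and from 0 to 3 lower among members, and from 0 to 6 higher and from 0 to 2 lower among the other pathway genes. Without chow replicate 3 the count by edgeR was 0 for both lists, while 8 and 5 members and 9 and 3 other pathway genes had an unadjusted p under 0.05. The number of ratios without overlap ran from 9 to 12. It could only stay at 9 or rise, because leaving a library out cannot make separate groups overlap, so it does not measure stability. Of 624 values of single genes, 511 kept their direction and side of the threshold, 59 lost the threshold, 12 gained it and 42, in 16 genes, changed sign. None of the sign changes was in a gene past the threshold. With single libraries left out this was all but fixed in advance, as the diets did not overlap for those genes. Under library size only the values were 0.02 for Ormdl3, 0.18 for Kdsr, 0.16 for Degs1, 0.00 for Cers2, 0.18 for Smpd1, 0.01 for Smpd2 and 0.03 for Sgpp1. With no filter they were -0.02 for Sptlc1, -0.01 for Ugcg, -0.02 for Sgpl1 and -0.01 for B4galt5. With the replicate block they were 0.00 for Ugcg, -0.01 for Sgpl1 and -0.01 for B4galt5, with limma-voom -0.02 for Sgpl1 and -0.01 for B4galt5, and with RLE scaling and DESeq2 0.00 for Sgpl1. With each library left out in turn they ranged from -0.03 to 0.03 for Sptlc1, -0.19 to 0.00 for Degs1, -0.16 to 0.12 for Ugcg, -0.10 to 0.26 for Asah2, -0.07 to 0.11 for Sgpl1, -0.10 to 0.22 for Spns2, -0.03 to 0.10 for Cert1, -0.24 to 0.42 for St3gal5, -0.15 to 0.49 for Aldh3a2 and -0.29 to 0.21 for B4galt5. The cause of these shifts was not tested. Depth limits Sptlc3, Sphk1, Degs2, Sgpp2 and S1pr4, which had fewer than 100 counts over all libraries.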

Other observations

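S1pr2 and S1pr5, which were called in opposite directions, are separated on chromosome 9 by 17 RefSeq genes, of which 7 were tested. Icam1, the leukocyte adhesion molecule (1.49 ± 0.36 on the log2 scale, SE), and Pde4a, a cyclic AMP phosphodiesterase (1.09 ± 0.25), were higher and 0 were lower (adjusted p = 0.0375 for Icam1 and 0.0289 for Pde4a by edgeR, Benjamini-Hochberg), beside 11.0% and 3.61% of all genes tested. Both were named after their values were seen. The other 5, Mrpl4, Raver1, Tyk2, Cdc37 and Keap1, had log2 fold changes from -0.22 to 0.20.

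Over the 33 tested members, HFHS replicate 2 was the highest of its group for 15 genes and the lowest for 15. These were 45.5% each, beside 39.2% highest and 36.2% lowest over all genes tested. It was the farthest of its group from the chow mean for 26 of the 33 (78.8%), against 55.4% of all genes tested.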
